A study of Mus musculus with 6 samples.

Results

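Septins are GTP-binding proteins that join into rods and filaments beneath the plasma membrane. Their filaments scaffold the contractile ring of dividing cells and stiffen the cortex of moving cells, T cells among them. Members fall into 4 subgroups by sequence, named after Septin2, Septin3, Septin6 and Septin7, and a filament is built from members of different subgroups. The septin probe sets described here come from double-negative thymocytes, T cell precursors without CD4 and CD8. A probe set belonged to the family where the platform's annotation gave it exactly 1 gene named Septin and a number. This took 9 of 12422 probe sets, which read 8 of the 8251 genes named on the array: Septin1, Septin2, Septin4 (with 2 probe sets), Septin6, Septin7, Septin9, Septin10 and Septin11. Another 2 probe sets, each annotated to a septin and to a further gene, were left out. Of 13 septin genes in the RefSeq table, 5 had no probe set of their own and were not analysed here. The family was singled out with the result for Septin10 already known, so all septin differences between the groups are given as a description. Which septins passed the fits is stated below, and nothing is read from it.

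RNA was measured on 6 Affymetrix mouse arrays. By the sample descriptions, a group of 3 came from RAG1-deficient mice and the other 3 from double mutants of RAG1 and Ezh2. On these descriptions the RAG1 defect, which affects the antigen receptor recombinase, is shared by all 6 arrays. Ezh2 methylates lysine 27 of histone H3, as the catalytic subunit of the Polycomb repressive complex PRC2. The labels give neither the alleles, any Cre driver, strain, sex or age, nor whether arrays of a group are separate animals, so p-values below cover the spread among these arrays alone, and that spread may be purely technical. Titles come in 3 styles, called numbered, Rag and Thy here, each with 1 array per group; they are replicates 1, 2 and 3 in that order throughout. Both Rag titles speak of T cells and lack the DN of the other titles. The titles of RAG1-deficient replicates 1 and 3 contain WT, although their descriptions name the RAG1 defect. Values are scaled intensities as deposited. All log2 values are of intensity + 23, which understates differences of dim probe sets, and every difference is double mutant minus RAG1-deficient. A probe set was tested where it exceeded an intensity of 86.5 on at least 3 arrays.

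Several array-wide facts bear on what follows. Ezh2 itself read 1435, 1641 and 1790 in RAG1-deficient and 292, 651 and 724 in double mutant thymocytes. It fell in the limma fit with title style as a block (paired fit; log2 difference -1.60, adjusted p = 0.0261), but did not pass in the fit with group alone (unpaired fit; adjusted p = 0.332). All 7 T lineage markers on the array, such as Cd3e and Ptcra, lay above the filter level. RAG1-deficient replicate 1 read 2973 for Cd8a and 8426 for Cd8b1, where the next highest arrays read 81.3 and 164, so these CD8 genes go against its double-negative label. It also read highest for Cd4, at 699 against 52.3 to 273 on the other arrays. Whether this array was RAG1-deficient was not tested. The granzyme genes Gzma and Gzmb, among the listed natural killer (NK) cell markers, were higher on all 3 double mutant arrays. The summed intensity of NK markers over the 5 of 7 listed genes on the array, each read by its brightest probe set, was 3816, 3734 and 2388 in RAG1-deficient and 9537, 9218 and 7161 in double mutant arrays (exact two-sided permutation p = 0.1, the smallest that 3 against 3 allow). Gzma made up most of this sum, at 2796, 2163 and 1244 against 8096, 7946 and 4982, and Gzmb read 191, 199 and 298 against 414, 553 and 903. The other 3, Ncr1, Klrd1 and Prf1, overlapped between the groups. None of these markers read 0, and 4 of the 5 lay above the filter level on at least 3 arrays. Summed markers of B lineage, myeloid, dendritic, erythroid and platelet, stromal and brain cells overlapped between the groups. Some of these sums differed widely between title styles. Dendritic markers summed to 4488 and 4337 on the Thy arrays (RAG1-deficient, double mutant) and to 9259 to 28313 on the others. Erythroid and platelet markers summed to 535 and 1126 on the Thy arrays and to 16893 to 30881 on the others.

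The promoter of Septin10 is shown first, because Septin10 is the one septin whose intensities did not overlap between the groups. Septin10 lies on chromosome 10 (59141624 to 59221500, GRCm38.p6). PRC2 is known to act at promoters rich in CpG, the dinucleotide of C followed by G. The 250 bases before a transcription start in RefSeq were read on the strand of the gene, CpG dinucleotides being in capitals. Not every start had such a window. Septin7 and Septin4, whose intensities overlapped, are shown for comparison with their windows before the gene's first start. Their CpG counts are 26 for Septin10 at chr10:59221501-59221750 (minus strand), 12 for Septin7 at chr9:25251741-25251990 (plus strand) and 1 for Septin4 at chr11:87566439-87566688 (plus strand).
Septin10: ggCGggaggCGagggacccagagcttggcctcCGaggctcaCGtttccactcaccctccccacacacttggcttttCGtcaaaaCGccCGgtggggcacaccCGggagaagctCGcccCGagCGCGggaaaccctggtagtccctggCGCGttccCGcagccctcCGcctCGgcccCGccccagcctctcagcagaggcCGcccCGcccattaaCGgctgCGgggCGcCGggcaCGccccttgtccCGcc
Septin7: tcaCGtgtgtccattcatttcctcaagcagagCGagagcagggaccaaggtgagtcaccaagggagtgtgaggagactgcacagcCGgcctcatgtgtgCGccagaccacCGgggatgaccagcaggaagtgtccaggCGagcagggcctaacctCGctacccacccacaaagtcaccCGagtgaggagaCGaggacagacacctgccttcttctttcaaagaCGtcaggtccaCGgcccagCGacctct
Septin4: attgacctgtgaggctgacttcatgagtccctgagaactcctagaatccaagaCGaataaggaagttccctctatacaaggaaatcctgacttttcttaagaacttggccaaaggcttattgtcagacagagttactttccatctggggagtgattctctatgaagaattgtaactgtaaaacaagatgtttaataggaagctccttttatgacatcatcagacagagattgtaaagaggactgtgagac
Over 21262 such windows of 17491 protein-coding genes the median was 10 CpG, and 12.3% held at least as many as Septin10. The GC content of the Septin10 window was 72.4%, against a median of 55.6%.

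A high CpG count was not particular to Septin10, and also occurred in septins whose intensities overlapped between the groups. Septin2 had windows with 22 and 31 CpG, and a second start of Septin7, inside the gene, followed a window with 36. Only 3.27% of all windows reached that count. The windows of Septin9 held 3 to 23 and those of Septin4 held 1 to 9. The only window of Septin11 held 15 and lies inside the gene, so the sequence before that gene's first start was not read. Windows of Septin1 and Septin6 were not used here. The arrays measured no histone mark, so these counts describe sequence only.

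**Figure D1:**
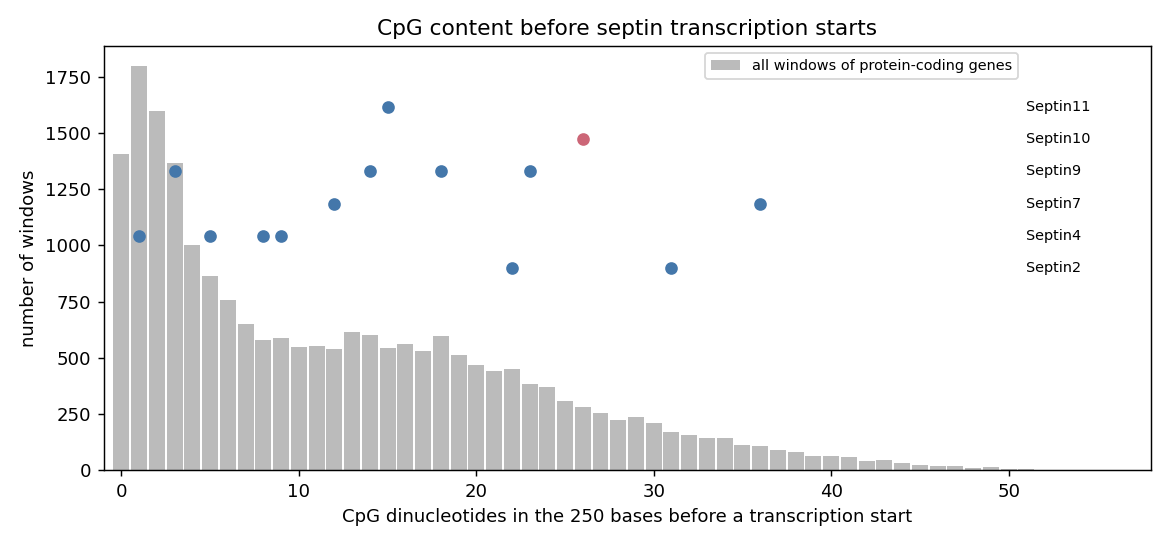
Number of CpG dinucleotides in the 250 bases before transcription starts. Grey bars count windows of all protein-coding genes; each point is 1 window of a septin gene on the array, placed at a height that only separates the genes (Septin10 red, others blue). Septin10, at 26, lies above the median of 10 but below the highest windows of Septin2 (31) and Septin7 (36).

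Septin10 belongs to the Septin6 subgroup and was the septin that stood apart. It read 48.8, 58.9 and 45.7 in RAG1-deficient thymocytes and 250, 240 and 334 in double mutants. All double mutant arrays were high and all RAG1-deficient arrays low, and the lowest double mutant value was 4.07 times the highest RAG1-deficient value. The means were 51.1 ± 6.9 (SD, n = 3) and 275 ± 51.6 (SD, n = 3), a ratio of 5.37 and a log2 difference of 2.0 ± 0.32 (SE). Because the RAG1-deficient values were dim, the size depends on the pseudocount: the log2 difference was 2.40 with a pseudocount of 1 and 1.30 with 100. By title style the difference was 1.93 (numbered), 1.68 (Rag) and 2.38 (Thy). It ranked 17th from the top among 7642 tested probe sets. The 3 RAG1-deficient values were all under the filter level and the 3 double mutant values above it, so the probe set was tested only through the group where it was high and had to differ. In bulk RNA, more cells that contain a transcript and more transcript per cell cannot be told apart. Of the NK markers above, Gzma, Gzmb and the sum that Gzma dominates were likewise higher on all 3 double mutant arrays, while Ncr1, Klrd1 and Prf1 overlapped; the part of NK cells in the Septin10 difference was not tested. Without RAG1-deficient replicate 1, the array with the CD8 signal, the log2 difference of Septin10 was 1.98.

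**Figure D2:**
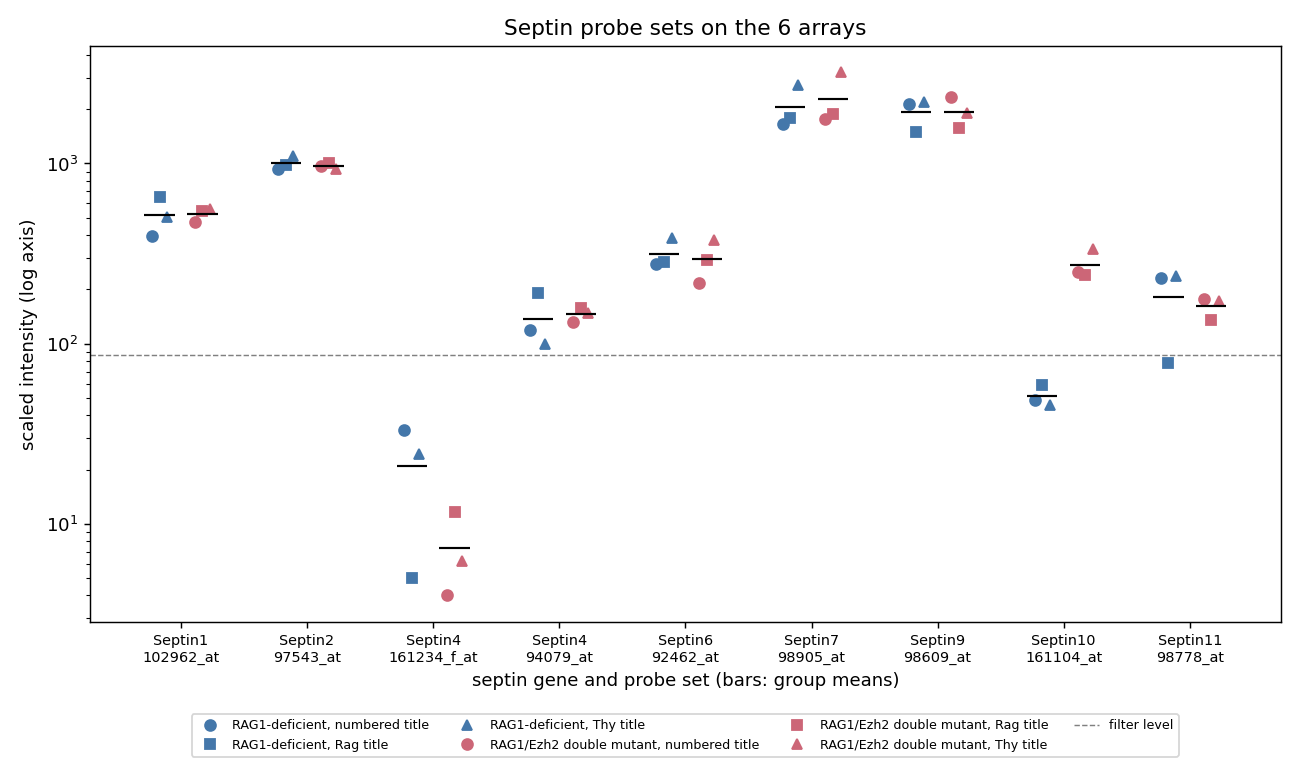
Scaled intensity (log axis) of the 9 septin probe sets on each of the 6 arrays. Colour gives the group, symbol the title style, black bars the group means and the dashed line the filter level of 86.5. Septin10 is the only one whose groups separate, with 45.7 to 58.9 against 240 to 334.

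Septin11 and Septin6, the other members of the Septin6 subgroup on the array, did not share this pattern. Septin11 read 231, 77.8 and 238 in RAG1-deficient and 178, 136 and 173 in double mutant thymocytes. Its double mutant values all fell inside the wide RAG1-deficient range, in which the highest array was 3.06 times the lowest. The log2 difference of Septin11 was -0.03 ± 0.41 (SE). Septin6, which pairs with Septin2 and Septin7 in the classic septin rod, read 278, 284 and 384 against 218, 291 and 374. The Thy array was the highest in both groups, and the groups overlapped. The log2 difference of Septin6 was -0.11 ± 0.27 (SE).

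Septin2 and Septin7, the partners of Septin6 in the classic septin rod, both overlapped between the groups. Septin2 read 932, 983 and 1094 in RAG1-deficient and 964, 1012 and 938 in double mutant thymocytes. It had the narrowest spread of the tested septins, with a log2 range of 0.23 over all 6 arrays, and a log2 difference of -0.043 ± 0.20 (SE). Septin7, the sole member of its subgroup, read 1652, 1794 and 2733 against 1760, 1884 and 3216. The Thy array was again highest in both groups. The log2 difference of Septin7 was 0.13 ± 0.31 (SE), and it was above 0 in each pair, at 0.091, 0.07 and 0.23 in the numbered, Rag and Thy pairs.

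Septin9, a subunit of the longer septin rods, read 2138, 1487 and 2186 in RAG1-deficient and 2334, 1582 and 1897 in double mutant thymocytes. The Rag array was lowest in both groups and the means were 1937 ± 391 (SD, n = 3) and 1938 ± 378 (SD, n = 3). The log2 difference of Septin9 was 0.0039 ± 0.25 (SE). Septin1, a member of the Septin2 subgroup known from lymphocytes, read 398, 655 and 505 against 476, 547 and 560. Its double mutant values lay within the RAG1-deficient range, with a log2 difference of 0.046 ± 0.24 (SE).

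Septin4, of the Septin2 subgroup, has an isoform called ARTS that promotes cell death. Its brighter probe set read 119, 190 and 99.7 in RAG1-deficient and 132, 158 and 148 in double mutant thymocytes, where every double mutant value lay inside the RAG1-deficient range. The log2 difference of that Septin4 probe set was 0.12 ± 0.33 (SE). The second probe set of Septin4, of a type that can detect related transcripts, lay under the filter level on all 6 arrays and was not tested. It read 33.2, 5.0 and 24.5 against 4.0, 11.7 and 6.2, and these groups overlapped too.

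Over the family, 8 of 9 probe sets, 1 for each gene, passed the filter. In the unpaired limma fit 0 of these 8 passed in either direction, against 0.0393% of all tested probe sets, and 1 was higher with an unadjusted p under 0.05, against 2.29% of all tested probe sets higher and 0.903% lower at that level. With limma's paired fit 1, Septin10, was called higher, against 0.563% of all tested probe sets called higher. Without the numbered pair or without the Thy pair the paired fit called 0 septins; without the Rag pair it still called Septin10. Groups did not overlap, with the double mutant higher, for 1 of 8 septins and for 4.21% of all tested probe sets. The family was chosen from this comparison, so nothing is read from these counts. Of the 8 differences 5 lay above and 3 below 0, with a median of 0.025, beside -0.0021 for all tested probe sets. Apart from Septin10 they ranged from -0.11 to 0.13, and each was smaller than its SE. These SEs of 0.20 to 0.41 leave room for modest differences in either direction.

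**Figure D3:**
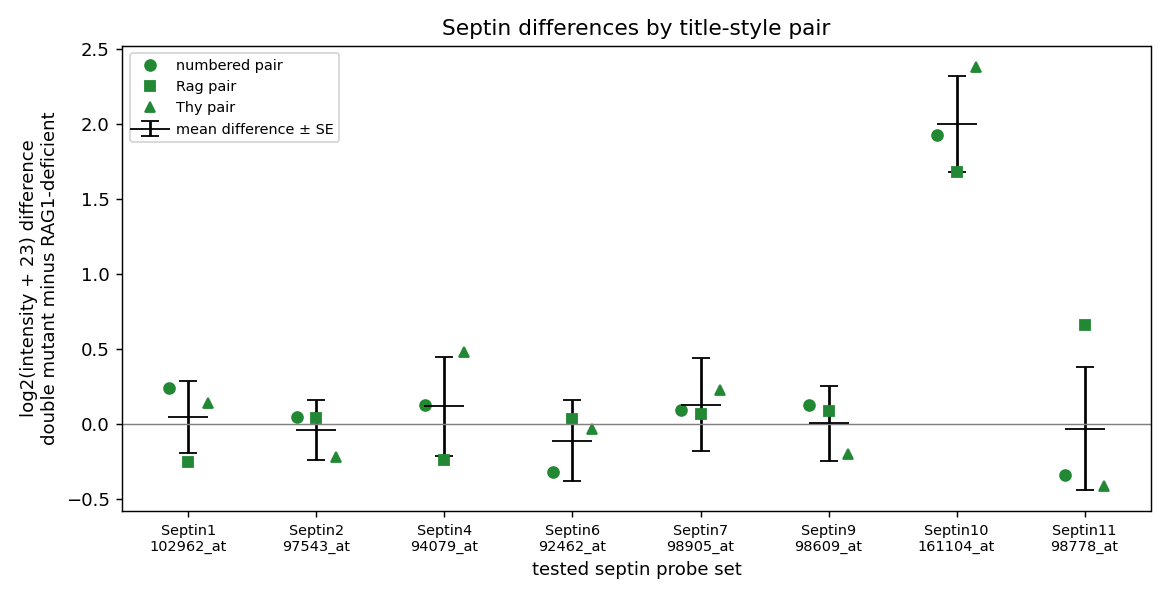
Log2 difference, double mutant minus RAG1-deficient, of the 8 tested septin probe sets. Symbols are the 3 title-style pairs and black bars the mean with its SE. All 3 pairs of Septin10 lie between 1.68 and 2.38, whereas the pairs of Septin1, Septin2, Septin4, Septin6, Septin9 and Septin11 lie on both sides of 0.

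**Figure D4:**
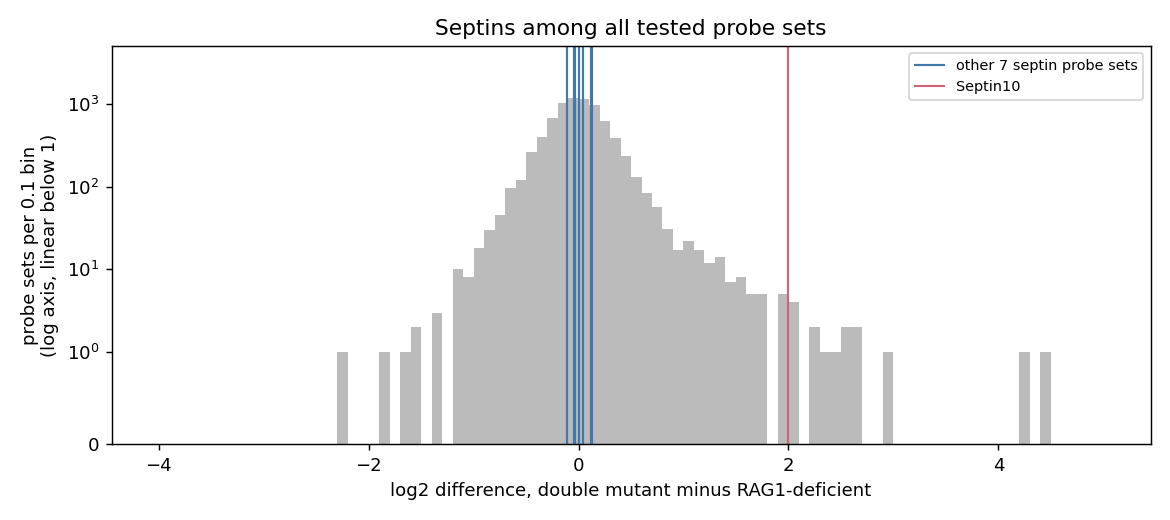
Distribution of the log2 difference over 7642 tested probe sets in bins of 0.1 (the vertical axis is logarithmic above 1). The red line is Septin10 at 2.0, 17th from the top, and the blue lines, between -0.11 and 0.13, are the other tested septins.

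The tested septins were also compared by the title style of the arrays. This was tested, after the values had been seen, as a difference among the 3 styles with group as a term in limma. Septin7 was the 1 of 8 septins that passed (adjusted p = 0.0128), beside 30.2% of all tested probe sets. Passing was thus common over the array, and nothing particular to Septin7 or the septins is read from it. Septin7 was higher on the Thy arrays than on the other arrays of the same group by a mean log2 difference of 0.74. The other 7 did not pass. On the Rag arrays Septin11 showed -0.83 and Septin9 -0.47, with adjusted p of 0.119 and 0.0598, and on the Thy arrays Septin6 showed 0.48 (adjusted p = 0.129). Septin10 showed -0.013 for the Rag arrays and 0.13 for the Thy arrays (adjusted p = 0.893). Array quality differed by style too. For the beta-actin control, signal at the transcript's tail end over that at its start was 2.26 (RAG1-deficient) and 2.77 (double mutant) on Rag arrays. It was 1.91 and 1.99 on the numbered and 1.4 and 1.24 on the Thy arrays. On the Rag arrays 55.2% and 55.3% of probe sets exceeded the filter level, against 61.5% to 64.3% on the others. The part of quality in the style differences was not tested.

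**Figure D5:**
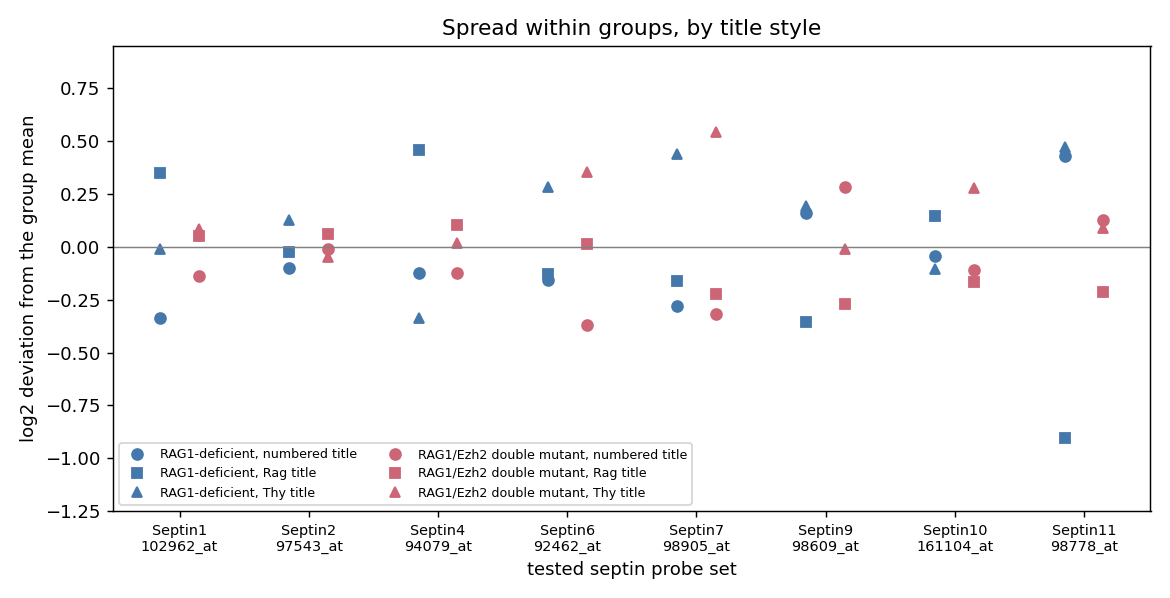
Log2 deviation of each array from its group mean for the 8 tested septins, by group (colour) and title style (symbol). Both Thy arrays are the highest of their group for Septin6 and Septin7, and both Rag arrays the lowest for Septin9 and Septin11.

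No tested gene in a chosen list of proteins that bind or regulate septins passed in either limma fit. The list held the Borg proteins, which link Cdc42 to septins, the septin-binding scaffold anillin (Anln), rhotekin (Rtkn, Rtkn2) and myosin heavy chains among its 14 genes, of which 6 were tested with 8 probe sets. Of the Borg proteins only Cdc42ep4 was tested. Rtkn2 had no probe set of its own, and Myh10 and Cit lay too low to be tested. Of these 8, 5 lay above and 3 below 0, with a median of 0.14. In the unpaired fit 0 passed, beside 0.0393% of all tested probe sets. There 1 was higher with an unadjusted p under 0.05, beside 2.29% of all tested probe sets. In the paired fit 0 passed, beside 0.667% of all tested probe sets in either direction. At the unadjusted level 1 was higher and 2 lower when paired (7.73% and 5.40% of all tested probe sets). Rtkn read 258, 180 and 207 in RAG1-deficient and 318, 367 and 332 in double mutant thymocytes, a log2 difference of 0.62 ± 0.24 (SE). Of the 8 probe sets this was the 1 whose groups did not overlap, as was so for 7.13% of all tested probe sets in either direction. A dimmer probe set of Rtkn showed 0.26 ± 0.56 (SE) and was lower in the numbered and Thy pairs. Myh9, the heavy chain of the main nonmuscle myosin of T cells, showed -0.52 on both of its probe sets, with overlapping groups. In the numbered, Rag and Thy pairs they showed 0.029, -0.48 and -1.09, and -0.079, -0.50 and -0.97. The 2 lower probe sets at the unadjusted paired level were these 2 of Myh9. Anln, at 0.29 ± 0.25 (SE), overlapped as well.

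Genes of cytokinesis, the step in which septins act at the cleavage furrow, lay mostly above 0. Of 33 listed genes 26 were tested with 38 probe sets, of which 28 lay above and 10 below 0, with a median of 0.16; of all tested probe sets 49.6% lay above 0. Groups did not overlap for 3 of the 38, all higher in the double mutant, beside 4.21% of all tested probe sets higher without overlap. In limma 0 passed in either fit, beside 0.0393% of all tested probe sets unpaired and 0.667% paired. Unadjusted p-values lay under 0.05 for 0 probe sets in the unpaired fit, where 2.29% of all tested were higher and 0.903% lower. When paired they did for 6 higher and 2 lower ones, where 7.73% of all tested probe sets were higher and 5.40% lower. The mitotic kinesin Kif4 read 273, 218 and 288 in RAG1-deficient and 385, 300 and 483 in double mutant thymocytes, without overlap, a log2 difference of 0.53 ± 0.26 (SE). Kif20a, a kinesin of the central spindle, showed 0.63 ± 0.29 (SE) on its dimmer and 0.29 ± 0.28 (SE) on its brighter probe set. Its dimmer probe set was at 0.0064 in the numbered pair and 1.29 in the Thy pair. No set test was made, and nothing particular to the list is read from these counts.

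No tested gene that neighbours a septin gene passed either. The 3 protein-coding genes on each side of the 8 septin genes made 48, of which 14 were tested with 18 probe sets. Septin4 and Septin7 had no tested neighbour, and of the neighbours of Septin10 only P4ha1 was tested. Of the 18 probe sets 9 lay above and 9 below 0, with a median of -0.012. In limma 0 passed in either fit, beside 0.0393% of all tested probe sets unpaired and 0.667% paired. Unadjusted p-values lay under 0.05 for 0 higher and 1 lower probe set in the unpaired fit (2.29% and 0.903% of all tested). When paired they did for 2 higher and 2 lower ones (7.73% and 5.40% of all tested). Beside Septin10, Sowahc read 68.8, 72.2 and 34.9 in RAG1-deficient and 170, 57.8 and 95.2 in double mutant thymocytes; it was above the filter level on 2 arrays and not tested, and its groups overlapped. P4ha1, a collagen prolyl hydroxylase gene on the same side of Septin10, showed -0.05 ± 0.47 (SE), with overlapping groups. Tmc6, close to Septin9, read 984, 1223 and 895 against 642, 616 and 696, without overlap, a log2 difference of -0.64 ± 0.21 (SE). Dctpp1, close to Septin1, showed 0.40 ± 0.27 (SE) and 0.51 ± 0.25 (SE) on its 2 probe sets, the second without overlap. Of the 18 probe sets, groups did not overlap for 1 higher and 1 lower, beside 7.13% of all tested probe sets in either direction.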

How the data were processed

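The values are the deposited series matrix table, 12488 probe sets on 6 arrays, in linear intensity. The software behind it is not given in the sources used here. As read from the deposited values, the 2%-trimmed mean intensity was 500.293 to 500.37 on all arrays, so each had been scaled to a common mean, which would hide a shift shared by most transcripts. No detection calls were used, and precision is limited by how few arrays there are. Groups come from the sample descriptions. The 66 control probe sets were left out of the fits. Names came from the platform annotation and RefSeq (GRCm38.p6): 10833 probe sets had 1 gene, 396 several and 1193 none. Promoter windows were read from RefSeq.

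The pseudocount, 23, and the filter, 86.5 on at least 3 arrays, are the 20th and 40th percentiles of all values; 7642 probe sets were tested. The main test was limma 3.58.1 (R 4.3.3; eBayes with trend, two-sided, Benjamini-Hochberg over all tested probe sets, threshold 0.05) with group alone. A second fit, blocked on title style, is given beside it where it changes a call, because deviations from the group means correlated within each style, at 0.570 (numbered), 0.736 (Rag) and 0.602 (Thy); the pairing is read from titles and data, not stated by a label. Septin members and gene lists were chosen with earlier results of these data known. Named were all septin probe sets, Ezh2, and in each list the genes that passed or, with none, those of the 3 probe sets with the smallest unpaired p; Anln, Sowahc, P4ha1 and marker genes were named in addition. Alternatives covered the pseudocount, scaling, filter, title-style block and arrays left out.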

Additional observations from a re-analysis of the deposited data

How the results depend on the processing

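Septin10 stayed higher in the double mutant under all 15 alternatives tried. Its groups did not overlap, so changing the pseudocount or leaving out arrays could not reverse this sign. Whether Septin10 passed did depend on the fit. Among the alternatives limma called it only under the title-style block, either on all arrays or after dropping both Rag arrays. The family was chosen from this comparison, and Septin10 was tested only through the group where it was high. Nothing is therefore read from these calls. The log2 difference of Septin10 was 2.40 at a pseudocount of 1 and 1.30 at a pseudocount of 100. With 1 array left out it lay between 1.86 and 2.08, and in the paired fit with 1 pair left out between 1.81 and 2.15. The other 7 tested septins each changed sign in 2 to 5 of the 15 alternatives and moved by less than their SD between arrays, the widest range being that of Septin11 (-0.48 to 0.20). Over all probe sets, the unpaired fit called 3 higher and 0 lower. The replicate block by title style called 43 higher and 8 lower, and quantile normalization 5 higher. With 1 array left out the count of higher calls ran from 0 to 6 (6 without RAG1-deficient replicate 1; 1 without replicate 2 and 0 without replicate 3 of the double mutant; 0 without RAG1-deficient replicate 3), with 0 lower; with 1 pair left out under the block it was 3 without the Thy, 12 without the numbered and 127 without the Rag pair, with 0, 2 and 64 lower. The causes were not tested. No tested member of the 3 gene lists passed with the block or, for the partner and cytokinesis lists, with the brightest probe set alone. Other than the paired calls of Septin10 and Ezh2, the block changed no call given above. Dim probe sets, such as the second one of Septin4, have no reliable order.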
